A study of Mus musculus with 17 samples.

Results

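A pair of chemokine receptors, a growth factor receptor and 4 surface or secreted proteins of the monocyte lineage were followed across sorted mouse common myeloid progenitors. The 7 genes were Ccr2, Ccr1, Csf1r, Ly6c2, Ms4a6c, Ly86 and Cd300c2, taken by name as monocyte lineage genes out of 24416 genes in the count tables. They were chosen with earlier results of these data known. All 7 passed the filter on low counts and were among the 13558 genes tested. The study profiled messenger RNA in these progenitors to follow Lin28b and let-7 in developmental myelopoiesis, and 17 libraries in 7 groups were analysed.

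The groups with a changed genotype were 3 fetal liver libraries labelled Lin28b KO, 1 fetal liver library labelled inducible Let-7, 3 adult bone marrow libraries labelled Let-7b/c knock-out, 2 adult bone marrow libraries labelled inducible LIN28B under vavcre, and 2 adult bone marrow libraries labelled inducible LIN28B with no Cre named. They were set beside 3 wild-type adult bone marrow and 3 wild-type fetal liver libraries. The vavcre libraries stand for induction restricted to blood cells, per the series text. The strain was albino black 6 for the let-7b/c knockout and C57BL/6J for every other group, so knockout and strain cannot be told apart there. The labels give the same doxycycline treatment text for all 17 libraries, wild type included. They give no age beyond adult or fetal, no animal numbers, and do not say whether replicate libraries had different donors, so the p-values cover only library-to-library variation, possibly technical. Tissue and stage change together between wild-type bone marrow and wild-type fetal liver.

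Common myeloid progenitors give rise to granulocytes, monocytes, erythroid cells and megakaryocytes. Lin28b blocks the maturation of let-7 microRNAs and is a fetal gene of blood progenitors, while mature let-7 pairs through its seed with target messenger RNAs and lowers their output. As a cell moves towards the monocyte fate it takes up CSF1R, the receptor for macrophage colony-stimulating factor and interleukin-34, and then CCR2, the receptor for CCL2, which lets monocytes leave the marrow. LY6C marks the classical inflammatory monocyte of the mouse. Fewer cells of a type and less RNA per cell cannot be told apart in these bulk samples.

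The mature sequences of the 2 deleted microRNAs are shown because the letters searched for below match their seed. RefSeq (GRCm38.p6) places let-7b at chr15:85707325-85707346 and 1 copy of let-7c at chr15:85706616-85706637, both on the plus strand, and bases 2 to 8 are in capitals.
mmu-let-7b-5p: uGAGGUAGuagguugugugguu
mmu-let-7c-5p: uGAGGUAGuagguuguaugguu
This seed is shared by 9 of the 10 mature mouse let-7 sequences in the RefSeq table. The matching 7 letters, CTACCTC, were searched in the longest GENCODE vM21 3′ untranslated region of each gene. None of the 7 members holds them, against 11.6% of the 12205 tested genes that have such a region. The search says only that these letters are absent from those regions, which span 382 bases in Ly6c2 to 2701 bases in Ccr2.

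Upstream sequences were searched for letters that myeloid factors recognise, because several members moved together. RefSeq promoter windows (GRCm38.p6) around the start were at hand for 6 members. The core of the ETS family, to which the myeloid factor PU.1 belongs, was written GGAAGT and searched on both strands. It is in capitals below, in 150 or 148 bases upstream of a start of the 3 members that hold it, on the strand of the gene. These genes have several annotated starts, so the printed bases can lie inside or across the gene spans given with the values.
Ly6c2, chr15:75111972-75112121, minus strand, GRCm38.p6: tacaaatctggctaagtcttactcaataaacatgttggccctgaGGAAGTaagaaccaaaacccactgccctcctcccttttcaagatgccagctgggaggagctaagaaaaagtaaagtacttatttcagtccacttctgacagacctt
Ms4a6c, chr19:11469218-11469365, plus strand, GRCm38.p6: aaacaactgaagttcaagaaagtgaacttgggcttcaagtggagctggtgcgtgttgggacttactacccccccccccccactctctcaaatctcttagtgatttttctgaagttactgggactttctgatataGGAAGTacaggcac
Cd300c2, chr11:115001881-115002030, minus strand, GRCm38.p6: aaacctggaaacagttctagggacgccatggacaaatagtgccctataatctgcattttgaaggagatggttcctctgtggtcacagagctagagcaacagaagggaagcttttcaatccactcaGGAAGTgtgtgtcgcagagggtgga
The GGAAGT letters stand in the windows of 3 of 6 members and in 23.8% of all 32851 promoter windows. Members were counted as genes with a match in any of their windows, and Ly6c2, for example, has several. The percentages here count single windows, so the shares of members and of windows are not alike. A C/EBP pattern, TTGCNNAA, stands in 0 of 6 members and 10.8% of all windows. A longer ETS-IRF composite stands in 0 of 6 members and 2.7% of all windows. Such matches are descriptions of the letters and not of bound sites.

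Levels below are read counts scaled to the library total after TMM adjustment, the trimmed-mean method of edgeR, and written as CPM. Summed counts were 14957111 to 28165554 per library. Some libraries stood apart. Lin28b was 88.9 to 111.9 CPM in the libraries labelled Lin28b knockout, against 89.3 to 123.6 CPM in wild-type fetal liver, so these libraries are named by their label only. They also carried far more RNA of red cell, macrophage and liver genes, as given beside their results. The inducible let-7 library listed 28.5% of the tested genes at 0, against 5.18% to 17.3% in the other libraries. The let-7b and let-7c loci had 1 count in all over the 17 libraries, so the knockout could not be checked in these data. Mouse Lin28b was 1.73 to 3.92 CPM in both LIN28B groups together and 0.0586 to 0.745 CPM in wild-type bone marrow. Of the genes of the sorting gate, Kit and Ly6a were listed at 0 in all groups, where reads shared by several transcripts had been set aside. Cd34 averaged 1.02 CPM in the libraries labelled Lin28b knockout, 14.3 CPM in the inducible let-7 library and between 5.63 and 7.97 CPM in the other groups.

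In overview, the let-7b/c knockout bone marrow held the highest group mean of 6 of the 7 genes, and Cd300c2 was the exception. The inducible LIN28B groups held the lowest 2 group means of Ccr2, Csf1r, Ms4a6c, Ly86 and Cd300c2. Ly6c2 was lowest in wild-type fetal liver. Relative to transcript length, the order of the genes also changed between groups. In let-7b/c knockout bone marrow Ccr2 led with a mean of 490.4 CPM per kb, before Ly6c2 with 196.1, Ly86 with 84.1, Csf1r with 67.3, Ms4a6c with 49.5 and Ccr1 with 32.0 CPM per kb. In wild-type bone marrow Ly6c2 led with 80.5 CPM per kb, before Ly86 with 29.9, Ms4a6c with 27.6, Csf1r with 26.2, Ccr2 with 19.9 and Ccr1 with 1.84 CPM per kb. In wild-type fetal liver Csf1r led with 36.4 CPM per kb and Ccr2 followed with 17.3 CPM per kb, while Ly6c2 stood at 2.17 CPM per kb. Cd300c2 was the lowest of the 7 in each of these 3 groups, at 1.59, 1.51 and 1.22 CPM per kb in that order of groups. Reads shared with another transcript could have been set aside, so the places of Ly6c2 and Ms4a6c in these orders are uncertain.

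**Figure D1:**
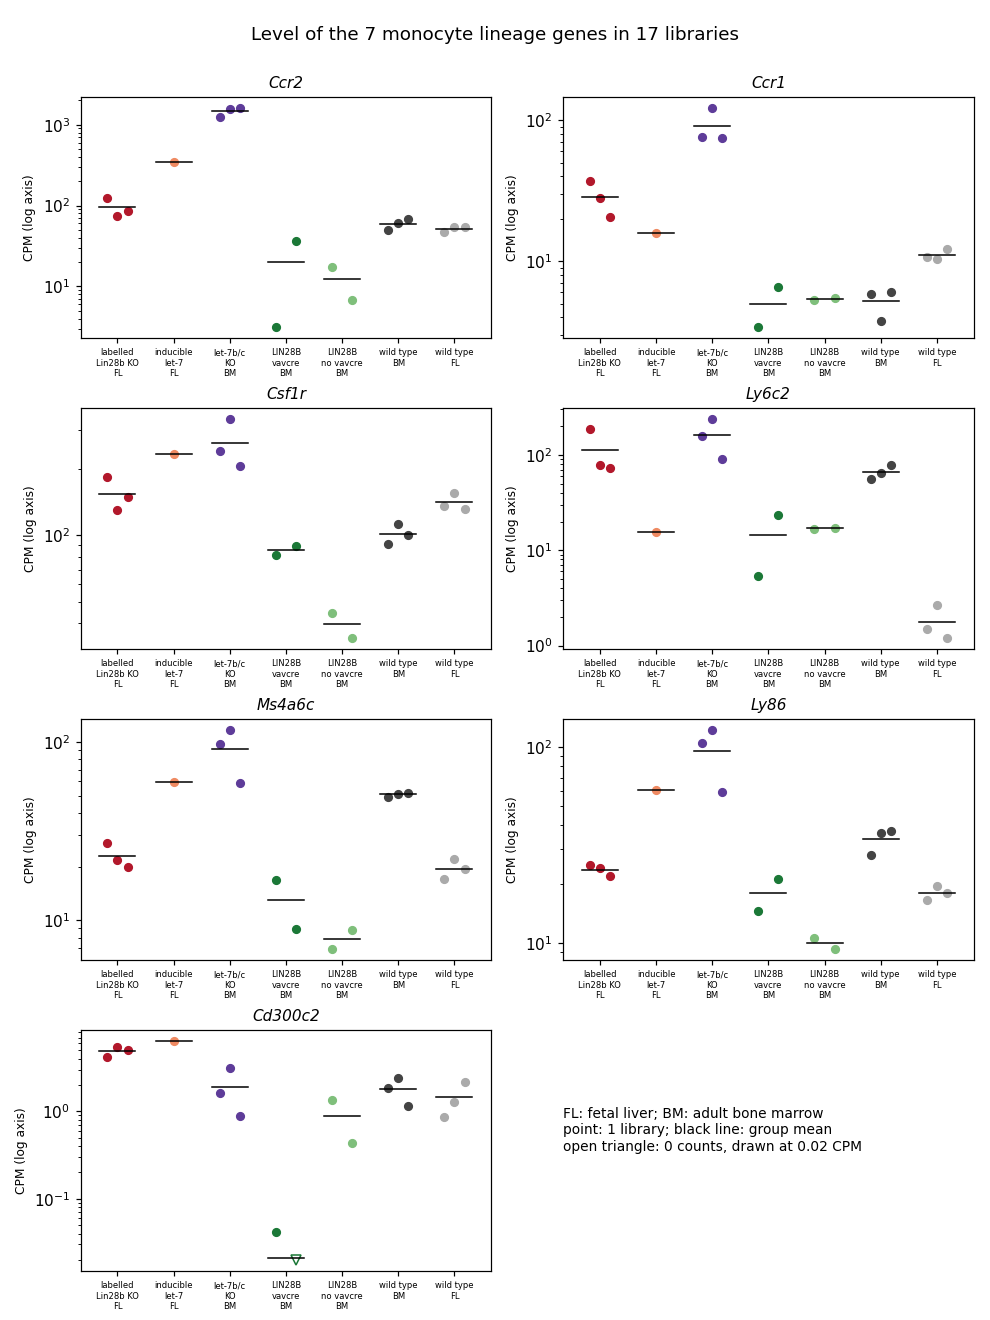
Level of each gene (CPM, log axis) in every library, with groups on the horizontal axis, 1 point per library and a black line at the group mean; an open triangle marks a library with 0 counts. Ccr2 sits between 1235 and 1605 CPM in the 3 let-7b/c knockout libraries and between 3.17 and 36.4 CPM in the 4 inducible LIN28B libraries, with wild-type bone marrow between them at 49.9 to 68.3 CPM.

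Ccr2 encodes the receptor for CCL2 and related chemokines, and lies on chromosome 9 from 124101918 to 124109140 (GRCm38.p6). It had 1235, 1572 and 1605 CPM in let-7b/c knockout bone marrow and 49.9, 60.8 and 68.3 CPM in wild-type bone marrow. All 3 knockout libraries were far above all 3 wild-type libraries, and the fitted difference was 4.62 ± 0.55 on the log2 scale (SE), or 24.65-fold higher in the knockout (edgeR adjusted p = 0.0005785). By p-value Ccr2 ranked 12 among the 13558 genes in this comparison. It had 3.17 and 36.4 CPM under inducible LIN28B with vavcre and 17.6 and 6.88 CPM without vavcre. All 4 of these libraries were below wild-type bone marrow, and the mean of both lines differed by -1.94 ± 0.48 on the log2 scale, or 3.85-fold lower (edgeR adjusted p = 0.01383). The vavcre libraries lay far apart from each other.

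The fall of Ccr2 in the LIN28B lines was near the threshold. The adjusted p was 0.1156 when the fit held only the groups compared, 0.05834 without LIN28B library 5 (no vavcre) and 0.05161 without wild-type bone marrow library 6. Between vavcre and no vavcre, the direction depended on 1 library: the log2 difference was 1.59 (edgeR adjusted p = 0.007081) without vavcre library 4 and -1.94 (edgeR adjusted p = 0.01081) without vavcre library 6. In fetal liver Ccr2 had 125.4, 74.3 and 86.2 CPM in the libraries labelled Lin28b knockout and 47.0, 54.1 and 54.7 CPM in wild type. These libraries did not overlap, but the log2 difference of 0.88 ± 0.49 did not pass the test (edgeR adjusted p = 0.1657). The 1 inducible let-7 library had 346.6 CPM, 6.675 times the wild-type fetal liver mean of 51.9 CPM. Wild-type bone marrow and wild-type fetal liver overlapped, with a log2 difference of 0.20 and a 95% interval of -0.85 to 1.25.

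Ccr1, a receptor for CCL3, CCL5 and related chemokines, lies 133.2 kb from Ccr2, on chromosome 9 from 123962126 to 123968692. It had 76.1, 121.9 and 74.3 CPM in let-7b/c knockout bone marrow, against 5.81, 3.75 and 6.08 CPM in wild-type bone marrow. The groups lay far apart, with a log2 difference of 4.12 ± 0.30, or 17.4-fold (edgeR adjusted p = 6.121e-06), and Ccr1 ranked 2 of 13558 genes by p-value. Unlike Ccr2, it did not differ detectably in the inducible LIN28B lines, where it had 3.42 and 6.58 CPM with vavcre and 5.28 and 5.48 CPM without. The log2 difference from wild-type bone marrow was -0.01 with a 95% interval of -0.59 to 0.57, so changes beyond about these sizes lie outside the interval. In fetal liver it had 36.9, 28.0 and 20.5 CPM in the libraries labelled Lin28b knockout, against 10.7, 10.4 and 12.2 CPM in wild type. The labelled libraries were all higher, by 1.36 ± 0.27 on the log2 scale (edgeR adjusted p = 0.0007899). The inducible let-7 library had 15.7 CPM, above the wild-type fetal liver libraries. Wild-type bone marrow was lower than wild-type fetal liver, with a log2 difference of -1.08 ± 0.29 (edgeR adjusted p = 0.009951; 0.05143 without bone marrow library 5).

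The 2 chemokine receptor genes stand in a cluster of such genes, and the neighbours were looked at over 200000 bases on each side. Of 10 genes in that window, Ccr1 and Ccr2 included, 9 were tested. Apart from these 2, none of the neighbours passed the test in the let-7b/c knockout. Xcr1, a chemokine receptor of cross-presenting dendritic cells, averaged 4.37 CPM in the knockout and 1.02 CPM in wild-type bone marrow (log2 difference 2.09, edgeR adjusted p = 0.09038). Ccr3, the eotaxin receptor, averaged 0.6996 CPM in the knockout and 1.73 CPM in wild-type bone marrow, and it did not pass either.

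Csf1r encodes the receptor tyrosine kinase on which monocyte and macrophage survival depends. It had 240.4, 334.4 and 206.0 CPM in let-7b/c knockout bone marrow and 91.5, 112.7 and 100.2 CPM in wild-type bone marrow. The knockout libraries were all above the wild-type libraries, by 1.36 ± 0.17 on the log2 scale, or 2.565-fold (edgeR adjusted p = 0.0007699). It had 81.7 and 89.3 CPM under inducible LIN28B with vavcre and 44.7 and 34.5 CPM without vavcre. All 4 libraries were below wild-type bone marrow, and the mean of both lines differed by -0.80 ± 0.16 (edgeR adjusted p = 0.003822). The line without vavcre carried most of this, with a log2 difference of -1.36 ± 0.20 (edgeR adjusted p = 0.003419), while the vavcre line differed by -0.25 ± 0.19 and did not pass (edgeR adjusted p = 0.3502).

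In fetal liver Csf1r had 183.7, 130.0 and 148.5 CPM in the libraries labelled Lin28b knockout and 135.3, 155.9 and 131.7 CPM in wild type. The ranges overlapped, and the log2 difference of 0.13 ± 0.17 had a 95% interval of -0.23 to 0.48. The inducible let-7 library had 233.5 CPM, 1.66 times the wild-type mean of 140.9 CPM. Wild-type bone marrow was lower than wild-type fetal liver with a log2 difference of -0.47 ± 0.17 (edgeR adjusted p = 0.047), a call that was lost with RLE size factors (0.05277), with unadjusted totals (0.1101) and without any single one of 5 of the 6 wild-type libraries.

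Read counts within a library were also set relative to those of Csf1r, a measure that no library scaling can move. Ccr2 counts were 5.14, 4.70 and 7.79 times the Csf1r counts in let-7b/c knockout bone marrow and 0.545, 0.540 and 0.681 times in wild-type bone marrow. The vavcre libraries had Ccr2 ratios of 0.0387 and 0.408, and those without vavcre 0.394 and 0.1997. The knockout libraries thus held more Ccr2 than Csf1r reads, as did the inducible let-7 library with 1.48, and the other libraries held fewer. The Ccr1 ratio was 0.317, 0.364 and 0.361 in the knockout, against 0.0635, 0.0333 and 0.0607 in wild-type bone marrow. The Ly6c2 ratio overlapped, with 0.649, 0.710 and 0.437 in the knockout and 0.606, 0.572 and 0.785 in wild-type bone marrow.

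**Figure D2:**
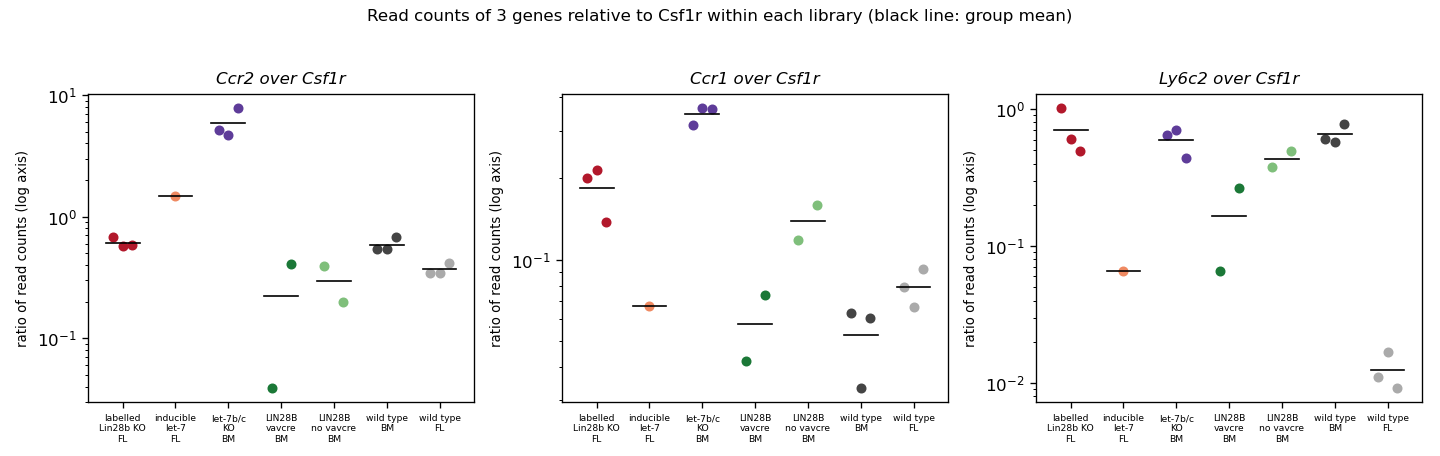
Ratio of the read counts of Ccr2, Ccr1 and Ly6c2 to those of Csf1r within each library (log axis), with groups on the horizontal axis, 1 point per library and a black line at the group mean. The Ccr2 ratio is 4.70 to 7.79 in let-7b/c knockout bone marrow and 0.540 to 0.681 in wild-type bone marrow, while the Ly6c2 ratio overlaps between these groups and is 0.00914 to 0.0169 in wild-type fetal liver.

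Ly6c2 encodes an LY6C antigen anchored in the membrane by a lipid, and lies on chromosome 15 from 75108161 to 75112066. It is nearly identical to Ly6c1, so reads shared by both could have been set aside and its level is uncertain. It had 55.5, 64.4 and 78.7 CPM in wild-type bone marrow and 1.498, 2.64 and 1.20 CPM in wild-type fetal liver. The adult libraries were all higher, by 5.21 ± 0.59 on the log2 scale, or 37.1-fold (edgeR adjusted p = 1.334e-05). In the libraries labelled Lin28b knockout it had 186.4, 78.5 and 73.2 CPM, against the same fetal wild-type values. The log2 difference was 5.98 ± 0.61, or 63.2-fold (edgeR adjusted p = 9.721e-07). The inducible let-7 library had 15.4 CPM, 8.65 times the wild-type fetal mean of 1.78 CPM.

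Ly6c2 in bone marrow had 156.1, 237.4 and 90.0 CPM in the let-7b/c knockout, each above the highest wild-type library. The log2 difference of 1.28 ± 0.46 did not pass (edgeR adjusted p = 0.1845; 95% interval 0.31 to 2.26). It had 5.40 and 23.6 CPM under inducible LIN28B with vavcre and 16.9 and 17.03 CPM without vavcre. All 4 were below wild-type bone marrow, and the mean of both lines differed by -2.08 ± 0.43 (edgeR adjusted p = 0.005474).

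Ms4a6c encodes a 4-pass membrane protein of the MS4A family and lies on chromosome 19 from 11469353 to 11487182. It had 16.9 and 8.95 CPM under inducible LIN28B with vavcre and 6.92 and 8.81 CPM without vavcre, against 49.3, 51.2 and 52.0 CPM in wild-type bone marrow. The wild-type libraries were tightly grouped and all 4 LIN28B libraries were well below them, with a log2 difference of -2.33 ± 0.23 (edgeR adjusted p = 7.657e-05), and Ms4a6c ranked 9 of 13558 genes by p-value. It had 97.9, 116.4 and 59.1 CPM in let-7b/c knockout bone marrow. These were above wild type, but the log2 difference of 0.84 ± 0.24 missed the threshold (edgeR adjusted p = 0.0909). It passed without knockout library 3 (0.01529), with DESeq2 (0.01367) and with no filter on low counts (0.02698). Wild-type bone marrow was higher than wild-type fetal liver, which had 17.1, 22.1 and 19.3 CPM, by 1.38 ± 0.25 (edgeR adjusted p = 0.000626).

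Ms4a6c had 27.2, 21.8 and 19.9 CPM in the libraries labelled Lin28b knockout, which overlapped wild-type fetal liver, and 59.3 CPM in the inducible let-7 library. Counts came from 2 RefSeq transcripts. The minor one, NM_001166376, gave 13.1% of the counted Ms4a6c reads in the inducible let-7 library (95% Wilson interval 11.5% to 14.9%, counting error only) and 1.35% to 10.9% in the other libraries. Reads shared by both transcripts could have been set aside, so these are not shares of all Ms4a6c RNA and its level is uncertain.

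Ly86 encodes MD-1, the secreted partner of the Toll-like receptor homologue CD180, and lies on chromosome 13 from 37345345 to 37419036. It had 105.0, 122.3 and 58.7 CPM in let-7b/c knockout bone marrow and 28.1, 36.5 and 37.3 CPM in wild-type bone marrow. The knockout libraries were all higher, by 1.49 ± 0.22 on the log2 scale, or 2.81-fold (edgeR adjusted p = 0.00293). It had 14.5 and 21.2 CPM under inducible LIN28B with vavcre and 10.6 and 9.30 CPM without vavcre. All 4 were below wild-type bone marrow, with a log2 difference for the mean of both lines of -1.35 ± 0.21 (edgeR adjusted p = 0.001046). Wild-type bone marrow was above wild-type fetal liver, which had 16.6, 19.6 and 17.9 CPM, by 0.91 ± 0.23 (edgeR adjusted p = 0.006602). The libraries labelled Lin28b knockout had 24.9, 24.2 and 21.8 CPM, all above wild-type fetal liver, but the log2 difference of 0.39 ± 0.23 did not pass (edgeR adjusted p = 0.1799). The inducible let-7 library had 60.3 CPM, 3.35 times the wild-type fetal mean.

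Cd300c2, a CD300 family receptor that signals through an adaptor with activating motifs, was the scarcest member and lies on chromosome 11 from 114996721 to 115004261. It had 4.21, 5.40 and 5.07 CPM in the libraries labelled Lin28b knockout and 0.862, 1.29 and 2.18 CPM in wild-type fetal liver. The labelled libraries were all higher, by 1.76 ± 0.55 on the log2 scale (edgeR adjusted p = 0.01719; 0.07628 and 0.05943 without wild-type fetal liver library 1 or 4). The inducible let-7 library had 6.36 CPM, the highest of all 17. The vavcre libraries held 1 count and 0 counts, and those without vavcre 22 and 8 counts, against 37, 41 and 21 counts in wild-type bone marrow. Pooled and scaled to library size, wild-type bone marrow was 84.6-fold higher than the vavcre libraries, with a 95% counting interval of 14.8 to 3374. The fitted log2 difference of the mean of both lines from wild-type bone marrow (-3.53, edgeR adjusted p = 0.002686) rests on that single count, and the line without vavcre did not pass by itself (edgeR adjusted p = 0.6448). The let-7b/c knockout had 1.62, 3.17 and 0.884 CPM, which overlapped wild-type bone marrow.

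**Figure D3:**
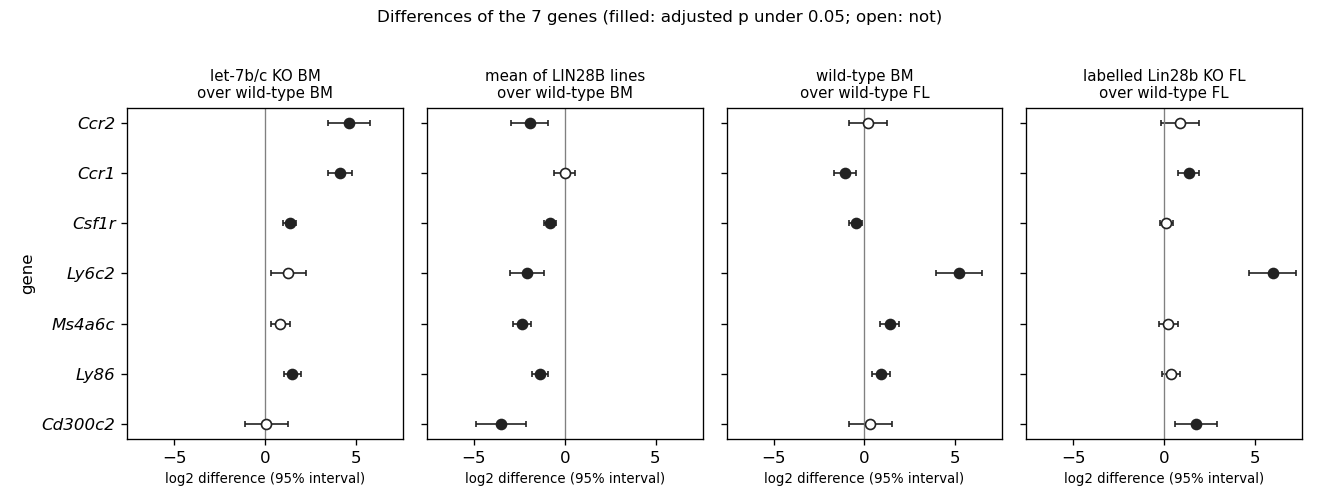
Fitted log2 difference of each gene in 4 comparisons, with 95% intervals; filled points have an edgeR adjusted p under 0.05 and positive values mean higher in the group named first. Ccr2 and Ccr1 lie at 4.62 and 4.12 in the let-7b/c knockout, Ly6c2 lies at 5.21 in wild-type bone marrow over fetal liver and 5.98 in the libraries labelled Lin28b knockout, and 6 of 7 genes lie below 0 and are filled for the LIN28B lines.

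The let-7b/c knockout was then set beside wild-type bone marrow. These groups differ in strain as well as in genotype label, and the knockout could not be checked in these data. Ccr2, Ccr1, Csf1r and Ly86 rose, 4 of 7, and none fell, while 1.33% of the tested genes were called higher and 0.922% lower. The median log2 difference of the 7 was 1.36, against 0.003 over all genes. Because the 7 were chosen with earlier results of these data known, the shares here and below describe them and do not test them. Against the mean of the LIN28B lines all 7 were called higher, where 10.5% of the tested genes were called higher and 8% lower. The log2 differences ran from 2.16 for Csf1r to 6.57 for Ccr2, or 94.8-fold. For Cd300c2 the libraries of these groups overlapped. Its log2 difference of 3.60 leans on the vavcre libraries, which held 1 count.

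The mean of the inducible LIN28B lines was lower for 6 of 7 members and higher for none, where 7.86% of the tested genes were called lower and 6.59% higher. The median of the 7 was -1.94, against -0.07 over all genes. Taken alone, the line without vavcre had 3 members lower, Csf1r, Ms4a6c and Ly86, where 0.295% of genes were called lower and 0.509% higher. The vavcre line had 4 lower, Ly6c2, Ms4a6c, Ly86 and Cd300c2, where 14.3% were called lower and 12.5% higher. These counts were 1 without LIN28B library 5 (no vavcre) and 2 without vavcre library 4. These lists differ, but the direct comparison of vavcre with no vavcre called Csf1r (log2 difference 1.11 ± 0.21, edgeR adjusted p = 0.001811) and Ly86 (0.85 ± 0.28, edgeR adjusted p = 0.0452) higher and Cd300c2 lower. That is 2 members higher and 1 lower, where 9.37% of genes were called higher and 11.3% lower. Fitted on these 4 libraries alone, 0 of the 6 members with a value were called. The comparisons with wild-type bone marrow use the same 3 control libraries, so their differences are not independent of each other.

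Between wild-type bone marrow and wild-type fetal liver, 3 members were higher in the adult, Ly6c2, Ms4a6c and Ly86, and 2 were lower, Ccr1 and Csf1r. Of the tested genes 13.2% were called higher and 13.9% lower. With unadjusted totals 61.9% of the calls were higher, against 48.7% with TMM. In the libraries labelled Lin28b knockout, 3 members were higher than in wild-type fetal liver, Ccr1, Ly6c2 and Cd300c2, and none was lower. There 20.8% of all genes were called higher and 23% lower, so 3 of 7 is read against a large background (5 of 7 were called with only these groups in the fit), and with unadjusted totals 35.3% of the calls were higher, against 47.5% with TMM. All 7 members were above the range of the wild-type fetal liver libraries in the inducible let-7 library, which has no replicate and no test. In that library 32.6% of all tested genes were above the same range and 46.6% below it.

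Genes around the members in the same pathways were described from fixed lists, which were also chosen with earlier results of these data known. Of 9 tested growth factor ligands and receptors, 3 rose and none fell in let-7b/c knockout progenitors relative to wild type, with a median log2 difference of 0.65 against 0.003 over all genes. Of all tested genes 1.33% were called higher and 0.922% lower there. Il6st, the shared signalling chain of interleukin-6 type cytokines, averaged 165.8 ± 31.1 CPM in the knockout and 61.6 ± 11.1 CPM in wild-type bone marrow (SD, n = 3 each, edgeR adjusted p = 0.0008382). Csf2rb, the shared chain of the receptors for GM-CSF, interleukin-3 and interleukin-5, averaged 149.1 ± 9.68 and 79.2 ± 2.67 CPM in the same order of groups (edgeR adjusted p = 0.01643). Ifngr2, a chain of the interferon gamma receptor, was the last of the 3, at 78.2 ± 8.58 CPM in the knockout and 47.2 ± 1.71 CPM in wild-type bone marrow. Few reads were counted for the ligands of CSF1R, with 10 counts of Csf1 and 0 counts of Il34 over all 17 libraries. Reads shared by several transcripts had been set aside, so these counts do not show how much of this RNA was present.

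Of 9 tested chemokine ligands, 2 rose in the knockout and none fell, where 1.33% of all tested genes were called higher and 0.922% lower. Ccl3 averaged 16.96 ± 3.61 CPM in the knockout and 5.27 ± 0.387 CPM in wild-type bone marrow, and Ccl4 10.6 ± 0.374 CPM in the knockout and 3.29 ± 1.28 CPM in wild type. CCL3 is a ligand of CCR1. Both genes rose in the mean of the LIN28B lines too, in which Ccl4 averaged 18.3 ± 7.12 CPM (n = 4), against the same wild-type level (edgeR adjusted p = 0.001188). Ccl2, the main ligand of CCR2, was at most 0.858 CPM in any group mean.

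In the let-7b/c knockout, 1.33% of all tested genes were called higher and 0.922% lower. Of 10 tested other chemokine receptors, with a median log2 difference of -0.068 against 0.003 over all genes, 1 rose there and none fell. That gene was Cx3cr1, the fractalkine receptor of patrolling monocytes, which averaged 30.7 ± 8.68 CPM in the knockout and 11.9 ± 2.40 CPM in wild-type bone marrow (edgeR adjusted p = 0.005735). For the mean of the LIN28B lines, 7.86% of all tested genes were called lower and 6.59% higher. Of these 10 receptors 3 fell there and none rose, with a median log2 difference of -0.82 against -0.07 over all genes. They include Cx3cr1 (6.72 ± 2.86 CPM, n = 4, edgeR adjusted p = 0.007792) and Cxcr4, the receptor that holds cells in the marrow (11.01 ± 1.82 CPM, against 18.04 ± 1.55 CPM in wild-type bone marrow, edgeR adjusted p = 0.0459).

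Of 30 tested other monocyte markers, 5 rose and none fell in the let-7b/c knockout, with a median log2 difference of 0.57 against 0.003 over all genes. There 1.33% of all tested genes were called higher and 0.922% lower. Pld4, an exonuclease of endolysosomes, averaged 82.5 ± 20.8 CPM in the knockout and 21.3 ± 1.29 CPM in wild-type bone marrow (edgeR adjusted p = 0.0002524), and Mpeg1, a pore-forming protein of macrophages, 41.2 ± 21.4 CPM in the knockout and 6.45 ± 4.63 CPM in wild type (edgeR adjusted p = 0.01124). In the mean of the LIN28B lines none of the 30 rose and 5 fell, with a median of -0.31 against -0.07 over all genes. There 6.59% of all tested genes were called higher and 7.86% lower. Ms4a3, a marker of progenitors committed to granulocytes and monocytes, averaged 11.8 ± 9.15 CPM in the 4 LIN28B libraries and 55.3 ± 7.89 CPM in wild-type bone marrow (edgeR adjusted p = 0.002416).

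Of 18 tested monocyte transcription factors, 2 rose and 1 fell in the let-7b/c knockout, where 1.33% of all genes were called higher and 0.922% lower. Their median log2 difference was 0.57 against 0.003 over all genes. The list leaves gaps, because Cebpa, Cebpb, Relb and Runx1 had 0 counts over all 17 libraries and were not tested. Reads shared by several transcripts had been set aside, so 0 counts do not show that a gene was silent. Irf8 had only 58 counts in all. Nfil3 averaged 27.4 ± 6.997 CPM in the knockout and 9.92 ± 1.22 CPM in wild-type bone marrow (edgeR adjusted p = 0.007685). Spi1, which encodes PU.1, averaged 242.6 ± 10.3 CPM in the knockout and 194.1 ± 10.1 CPM in wild type and was not called. In the mean of the LIN28B lines Egr1, an immediate early gene, rose to 89.6 ± 50.1 CPM (n = 4), against 4.88 ± 3.89 CPM in wild-type bone marrow (edgeR adjusted p = 0.0007231), and 1 of the 18 fell. Of all tested genes 6.59% were called higher and 7.86% lower for that mean.

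Relatives of single members were read the same way, beside the shares of all tested genes called. These were 6.59% higher and 7.86% lower for the mean of the LIN28B lines. For the let-7b/c knockout they were 1.33% higher and 0.922% lower. For wild-type bone marrow over wild-type fetal liver they were 13.2% higher and 13.9% lower. Of 9 tested MS4A genes, 3 fell and none rose in the mean of the LIN28B lines, among them Ms4a6b, at 16.6 ± 3.62 CPM (n = 4) against 38.2 ± 6.71 CPM in wild-type bone marrow (edgeR adjusted p = 0.00241). Of 5 tested CD300 genes, only Cd300a, an inhibitory receptor, fell there, at 44.3 ± 6.03 CPM against 65.3 ± 5.15 CPM in wild-type bone marrow (edgeR adjusted p = 0.008642). Cd300a and Cd300lb were both higher in wild-type bone marrow than in wild-type fetal liver, and Cd300lb averaged 43.6 ± 4.32 CPM in bone marrow and 10.2 ± 3.37 CPM in fetal liver (edgeR adjusted p = 0.0004679). Of 7 tested partners of MD-1 and Toll-like receptor genes, Unc93b1, a chaperone of endosomal Toll-like receptors, alone rose in the let-7b/c knockout, at 21.9 ± 3.03 CPM against 9.79 ± 1.18 CPM in wild-type bone marrow (edgeR adjusted p = 0.006597). None of 3 tested LY6 relatives was called in the let-7b/c or the LIN28B comparisons with wild-type bone marrow.

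Markers of other cell types were measured beside these results. The let-7b/c knockout counts stand beside 1.33% of all tested genes called higher and 0.922% called lower. In the let-7b/c knockout, tissue macrophage markers summed to 50.03 to 67.7 CPM, against 93.2 to 107.7 CPM in wild-type bone marrow, with 1 of 16 tested lower and none higher. Dendritic cell markers summed to 118.5 to 152.2 CPM in the knockout and 48.1 to 58.6 CPM in wild type, and 2 of 12 rose. Much of these sums was H2-Ab1, with means of 80.1 CPM in the knockout and 34.6 CPM in wild type. The median log2 difference of the 12 was 1.31 against 0.003 over all genes. Eosinophil markers were 1.62, 138.3 and 3.02 CPM in knockout libraries 1, 2 and 3, so library 2 stood apart, against 3.46 to 5.86 CPM in wild-type bone marrow. Without knockout library 2 the count of members called higher was 4, as with it. Mast cell and basophil markers summed to 605.9 to 837.1 CPM in the knockout and 1022 to 1100 CPM in wild type, with 3 of 10 higher and 2 lower. Neutrophil granule genes summed to 15790 to 20400 CPM in the knockout and 11100 to 13080 CPM in wild type, without overlap. Of these genes 1 of 19 was called higher and none lower. The gene Mpo made up most of these sums, with means of 14770 CPM in the knockout and 10210 CPM in wild type. The median log2 difference of the 19 was -0.10 against 0.003 over all genes. Megakaryocyte markers summed to 151.2 to 259.9 CPM in the knockout and 341.9 to 464.7 CPM in wild type, with 2 of 9 lower and none higher. The part of these cells in the results was not tested.

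In the inducible LIN28B groups, tissue macrophage markers summed to 37.6 and 77.8 CPM with vavcre and to 27.0 and 40.0 CPM without, against 93.2 to 107.7 CPM in wild-type bone marrow. For the mean of both lines, 9 of 16 fell. This and the list counts that follow stand beside 7.86% of all tested genes called lower and 6.59% called higher. Neutrophil granule genes summed to 9837 and 14880 CPM with vavcre and 6318 and 7274 CPM without, against 11100 to 13080 CPM in wild type. For the mean of both lines, 1 of 19 was higher and 2 were lower. Mpo made up most of these sums, with means of 9698 CPM with vavcre, 5442 CPM without and 10210 CPM in wild type. The median log2 difference of the 19 was 0.69 against -0.07 over all genes. Dendritic cell markers summed to 67.5 and 105.4 CPM with vavcre and 82.8 and 87.8 CPM without. All were above the 48.1 to 58.6 CPM of wild type, with 1 of 12 genes higher. The gene H2-Ab1 made up much of these sums, with means of 57.7 CPM with vavcre, 64.8 CPM without and 34.6 CPM in wild type. For the mean of both lines, the median log2 difference of the 12 was 0.175 against -0.07 over all genes. Mast cell and basophil markers summed to 1036 and 1371 CPM with vavcre and 1448 and 1461 CPM without, against 1022 to 1100 CPM in wild type, with 2 of 10 higher. Megakaryocyte markers summed to 263.7 and 297.9 CPM with vavcre and 331.3 and 352.6 CPM without, against 341.9 to 464.7 CPM in wild type, with 2 of 9 lower. Their part in the lower levels of the members was not tested.

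Most marker lists stood apart in the libraries labelled Lin28b knockout when set beside wild-type fetal liver. In that comparison 20.8% of all tested genes were called higher and 23% lower. Erythroid markers summed to 39270 to 45370 CPM in the labelled libraries and 926.7 to 1235 CPM in wild type, with 14 of 15 higher. Tissue macrophage markers summed to 931.5 to 1121 CPM in the labelled libraries and 21.5 to 25.3 CPM in wild type, with 15 of 16 higher. Neutrophil granule genes had 16 of 19 higher and hepatocyte markers 8 of 9, and other monocyte markers had 18 of 30 higher and 4 lower. Spi1 fell to 106.6 ± 23.5 CPM in the labelled libraries, against 243.0 ± 13.6 CPM in wild type (edgeR adjusted p = 7.606e-07). The part of these cells in the Ccr1, Ly6c2 and Cd300c2 results was not tested. Between wild-type bone marrow and fetal liver, 14 of 19 neutrophil granule genes and 7 of 16 tissue macrophage markers were higher in the adult. Of all tested genes 13.2% were called higher and 13.9% lower there.

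In the inducible let-7 library 12 tissue macrophage markers, 7 erythroid markers and 13 of the other monocyte markers were listed at 0. Among them were the monocyte markers Fcgr1 and Cd14. Over the pooled wild-type fetal liver libraries 4, 6 and 6 genes of these lists were at 0, in the same order of lists. Other monocyte markers summed to 3978 CPM in the inducible let-7 library, against 1618 to 1886 CPM in wild-type fetal liver. The genes Emb and Plac8 made up much of these sums. They had 1061 and 948.1 CPM in the inducible let-7 library, against means of 596.8 and 329.1 CPM in wild-type fetal liver.

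**Figure D4:**
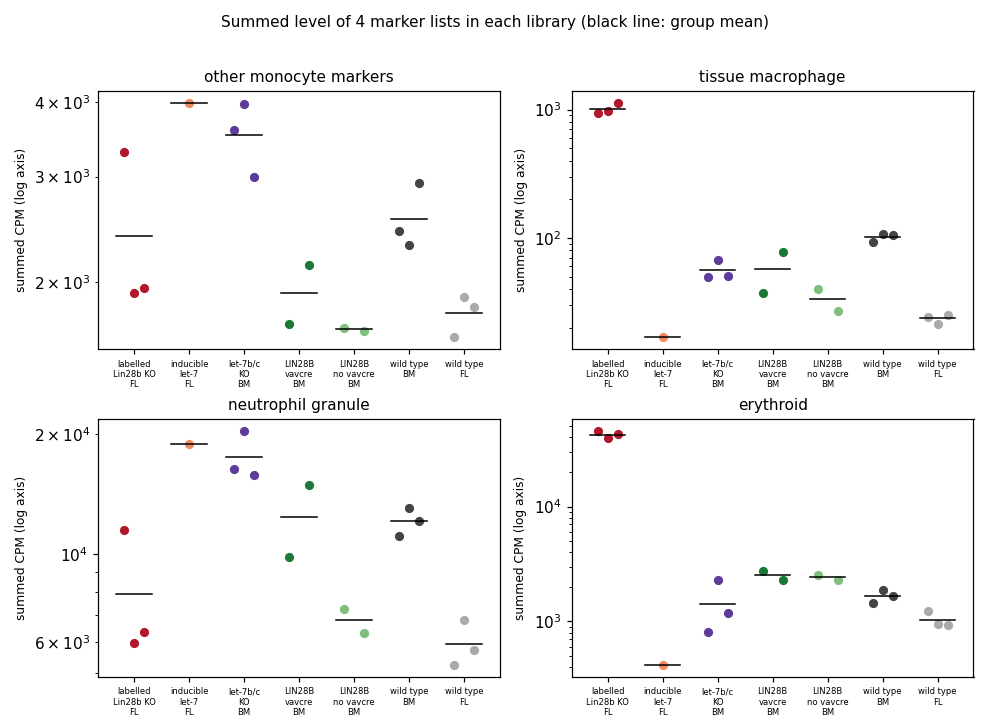
Summed level of 4 marker lists in each library (CPM, log axis), with groups on the horizontal axis, 1 point per library and a black line at the group mean. Tissue macrophage markers are 931.5 to 1121 CPM in the libraries labelled Lin28b knockout and 21.5 to 25.3 CPM in wild-type fetal liver, and the inducible let-7 library is at 16.9 CPM.

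Genes whose levels followed each member most closely were found by the mean absolute difference of centred log2 CPM over the 17 libraries, among 12057 genes. The nearest pair of members was Ms4a6c and Ly86, at 0.285 from each other, nearer than any gene outside the 7 was to either. Outside the 7 members, the genes nearest to Csf1r were Slc49a4 and Mgst2 at 0.34 and Pld4 at 0.355. Those nearest to Ly86 were Lpxn at 0.40, Prtn3, a protease of primary granules, at 0.42 and Igsf6 at 0.45. Ms4a6c had Clec12a, a C-type lectin of myeloid cells, at 0.47. Ly6c2 had Slpi at 0.57 and Elane, the neutrophil elastase gene, at 0.64. Elane averaged 344.3 ± 77.7 CPM in wild-type bone marrow and 17.9 ± 5.92 CPM in wild-type fetal liver.

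The distances of Ccr2 and Ccr1 to their nearest gene were the largest of the 7 members. The nearest to Ccr2 were Mpeg1 at 0.995, Abca9 at 1.055 and Nlrp3, an inflammasome sensor, at 1.06, and Ccr1 itself was at 1.09 from it. The nearest to Ccr1 was also Mpeg1, at 0.67. Cd300c2 had Ribc1 at 0.61, which averaged 0.0422 CPM in the vavcre libraries and 2.84 ± 1.11 CPM in wild-type bone marrow.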

How the data were processed

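Read counts per RefSeq transcript were deposited by the authors for each of 17 libraries of FACS-sorted common myeloid progenitors, made from total RNA with a SMARTer ultra low input kit, per the labels. Trimming, alignment and counting tools were cutadapt, TopHat2 and HTSeq on the mm10 build, per the submitters' processing notes, with versions not given in the sources used here. Counts were expected per gene and were found per transcript, so transcripts were summed to 24416 genes. Reads set aside as ambiguous were 23.8% to 29.8% of all reads and those outside features 8.87% to 19.3%, and both were left out of library totals of 14957111 to 28165554 counts.

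A single quasi-likelihood model of 7 group means was fitted with edgeR 4.0.16 (R 4.3.3), TMM scaling and edgeR's expression filter, giving 13558 genes and 10 residual degrees of freedom, with Benjamini-Hochberg adjustment over all of them and a threshold of 0.05. Fold changes carry standard errors from the F statistic. The mean of the LIN28B lines weighted both lines equally. The single inducible let-7 library was set against the wild-type range with no test. The fit was tested on simulated data with 200 changed genes. Replicate libraries differed beyond counting error, and none was a copy of another. Alternatives were RLE factors, unadjusted totals, no filter, DESeq2 1.42.0, fits of only the groups compared, genes with 1 transcript, each replicate left out, and, added after the data were seen, a fit without the inducible let-7 library.

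The members and lists were chosen with earlier results of these data known. From each list up to 3 called genes with the smallest p-values were named, with the 3 genes nearest each member in centred log2 CPM. Ccr3, Xcr1, Spi1, Csf1, Il34, Ccl2, Fcgr1 and Cd14 were named outside this rule after their values were seen. Mpo, H2-Ab1, Emb and Plac8 were named for their large part of a sum, and Cebpa, Cebpb, Relb, Runx1 and Irf8 for their low counts. Values of some list genes are not reported here.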

Additional observations from a re-analysis of the deposited data

Results flagged for a closer look

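Between the inducible LIN28B lines, 3 members differed in their distance from wild-type bone marrow by a direct test of vavcre against no vavcre in the model of all groups. The log2 difference was 1.11 for Csf1r (85.5 CPM with vavcre and 39.6 CPM without, edgeR adjusted p = 0.001811) and 0.85 for Ly86 (17.9 CPM with vavcre and 9.93 CPM without, edgeR adjusted p = 0.0452). For Cd300c2 the fitted value was -5.01, and it rests on 1 count with vavcre against 30 counts without. Scaled to library size, Cd300c2 was 40.5-fold higher without vavcre, with a 95% counting interval of 6.74 to 1653. Each line has 2 libraries, and with only these 4 libraries in the fit Csf1r and Ly86 were not called and Cd300c2 gave no value.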

How the results depend on the processing

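The counts of members called changed by at most 1.5 times under every alternative run except the following. The line without vavcre against wild-type bone marrow had 3 members called in the main analysis and 5 with no filter, with DESeq2 and with only those groups in the fit. The libraries labelled Lin28b knockout had 3 called and 5 with only the groups compared. The comparison of vavcre with no vavcre had 3 called and 0 of 6 members tested with only those groups (Csf1r 0.05167, Ly86 0.2042, edgeR adjusted p), and smaller fits have fewer degrees of freedom. Leaving out 1 library at a time gave 1 to 3 members for the line without vavcre, 2 to 5 for the vavcre line, 2 to 4 between the lines, 4 to 5 for the let-7b/c knockout, 2 to 3 for the libraries labelled Lin28b knockout, 5 to 6 for the mean of the LIN28B lines and 4 for wild-type bone marrow over fetal liver. The lowest value of 1 came without LIN28B library 5 (no vavcre), and the lowest value of 2 for the vavcre line without vavcre library 4. The let-7b/c knockout over the LIN28B lines kept a count of 7 in each of these. That count includes Cd300c2, whose libraries overlapped between these groups.

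Differences that changed sign had no call in the main analysis. With unadjusted totals the log2 difference was -0.073 for Csf1r in the libraries labelled Lin28b knockout and 0.015 for Ccr1 in the mean of the LIN28B lines. Leaving out 1 library gave -0.016 to 0.24 for Csf1r in the libraries labelled Lin28b knockout and -0.493 to 0.447 for Cd300c2 in the let-7b/c knockout. For Ccr1 it gave -0.283 to 0.194 in the mean of the LIN28B lines, -0.612 to 0.34 in the vavcre line, -0.143 to 0.177 in the line without vavcre and -0.659 to 0.292 between the lines. Between the lines Ccr2 ran from -1.94 to 1.588 and Ly6c2 from -1.654 to 0.478. The cause was not tested.

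Over all genes, the let-7b/c knockout had 305 calls against wild-type bone marrow and 783 with DESeq2. The line without vavcre had 109, against 191 with no filter, 403 with DESeq2 and 268 with only the groups compared. The last setting also gave 2007 in place of 3634 for the vavcre line, 422 in place of 2799 between the lines, 1132 in place of 1958 for the mean of both and 1000 in place of 2506 for the let-7b/c knockout over the LIN28B lines. Unadjusted totals moved the median log2 difference of all genes from 0.0 to -0.19 in the libraries labelled Lin28b knockout and from 0.077 to 0.188 in wild-type bone marrow over fetal liver. No paired analysis was possible because no 2 groups that were compared share more than 1 replicate number. Ms4a6c has 2 transcripts and gave no value among genes with 1 transcript. The low counts of Cd300c2 limit its values.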
